A study of Mus musculus with 6 samples.

Results

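The genes described here encode 5 matrix metalloproteinases, Mmp8, Mmp9, Mmp12, Mmp14 and Mmp19, and 3 tissue inhibitors of metalloproteinases, Timp1, Timp2 and Timp3. They were taken by gene symbol, and all 8 were found once among the 26699 genes of the files. All 8 passed the filter on low counts. RNA came from primary mouse bone marrow macrophages of animals aged 8 weeks, expanded with 10 ng/mL M-CSF and then given 30 ng/mL M-CSF and 50 ng/mL RANKL, the osteoclast-inducing cytokine, for 48 hours. Control cells (3 libraries) had the genotype Slc11a2flox/flox, and knockout cells, here cKO (3 libraries), had the genotype LysmCre-Slc11a2flox/flox, so both genotypes carried the floxed alleles of the iron transporter gene Slc11a2 and cKO cells alone carried Cre. Cre was driven by the lysozyme M promoter of myeloid cells, and since no library had Cre without floxed alleles, effects of Cre and of Slc11a2 loss cannot be told apart. The labels number the libraries of each genotype 1 to 3 and do not say whether each number is a separate mouse or dish, so each p-value reflects only how these libraries vary, which may be technical variation. Values listed per library follow the replicate numbers 1, 2 and 3.

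Matrix metalloproteinases are zinc endopeptidases that are made as inactive proenzymes and cut collagens, elastin, gelatin and many cell surface proteins. The inhibitors bind the active site of the mature enzymes and hold proteolysis in check. In bone, MMP9 (gelatinase B) is a product of osteoclasts, and its gene is switched on during their differentiation together with those of cathepsin K and tartrate-resistant acid phosphatase. MMP12 (macrophage elastase) and MMP8 (neutrophil collagenase) are better known from macrophages and neutrophils. MMP14 is anchored in the membrane and activates pro-MMP2 with TIMP2 as an adaptor, and MMP19 is a soluble enzyme of broad specificity.

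The 5 enzymes share the zinc-binding site of the catalytic domain, shown here as coding sequence. Each line gives 33 bases (11 codons) of the transcript numbered 201 of that gene in GENCODE release M21, 5′ to 3′, and capitals mark the 3 histidine codons that hold the zinc ion and the codon of the catalytic glutamate.
Mmp8: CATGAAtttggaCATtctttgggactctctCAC
Mmp9: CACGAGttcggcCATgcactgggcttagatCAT
Mmp12: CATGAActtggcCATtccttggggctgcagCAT
Mmp14: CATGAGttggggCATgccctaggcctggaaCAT
Mmp19: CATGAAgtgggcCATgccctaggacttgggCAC
The site lies at codons 217 to 227 in Mmp8, 401 to 411 in Mmp9, 222 to 232 in Mmp12, 239 to 249 in Mmp14 and 213 to 223 in Mmp19. Mmp9 had 25 of 33 bases in common with Mmp14, 21 with Mmp12 and 20 with Mmp8. Mmp8 and Mmp12, which lie in the same chromosomal cluster, had 24 of 33 in common.

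Total counts ranged from 49720701 to 57797282 reads per library, so 1 read was worth 0.0173 to 0.0201 CPM, the unit that scales counts to a common library size. Levels below are CPM after TMM scaling unless named otherwise. In the label check, Slc11a2 was lower in each cKO library (78.3 to 87.4 CPM) than in any control library (109.6 to 118.5 CPM). Markers of macrophages and osteoclasts were abundant. The summed level of 16 stromal markers was 6209 to 7080 CPM in control and 5576 to 8731 CPM in cKO libraries, led by Col1a1 at a mean of 2179 CPM. RNA of whole cultures was measured, so fewer cells of a type and less RNA per cell cannot be told apart. Of 16843 genes tested with edgeR's quasi-likelihood test, 2.42% (407) had a Benjamini-Hochberg adjusted p below 0.05 and are called here.

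Mmp9 and Mmp12 dominated these transcripts, and Mmp12 was the only member of the 8 that was called. It rose 1.29-fold in cKO cells, while 0 members fell. Mmp9 stood at 0.732 times the control level with overlapping libraries and was not called, and the other 6 had log2 fold changes between -0.20 and 0.24. The share of members called, 1 of 8, stands beside 2.42% of all genes. At an unadjusted p under 0.05 there were 2 higher members (Mmp12, Mmp8) and 1 lower (Mmp9), against 17.2% of all genes, and DESeq2, which called 6.04% of genes, called Mmp12 only. Their median log2 fold change was 0.05, against 0.001 over all genes tested.

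**Figure D1:**
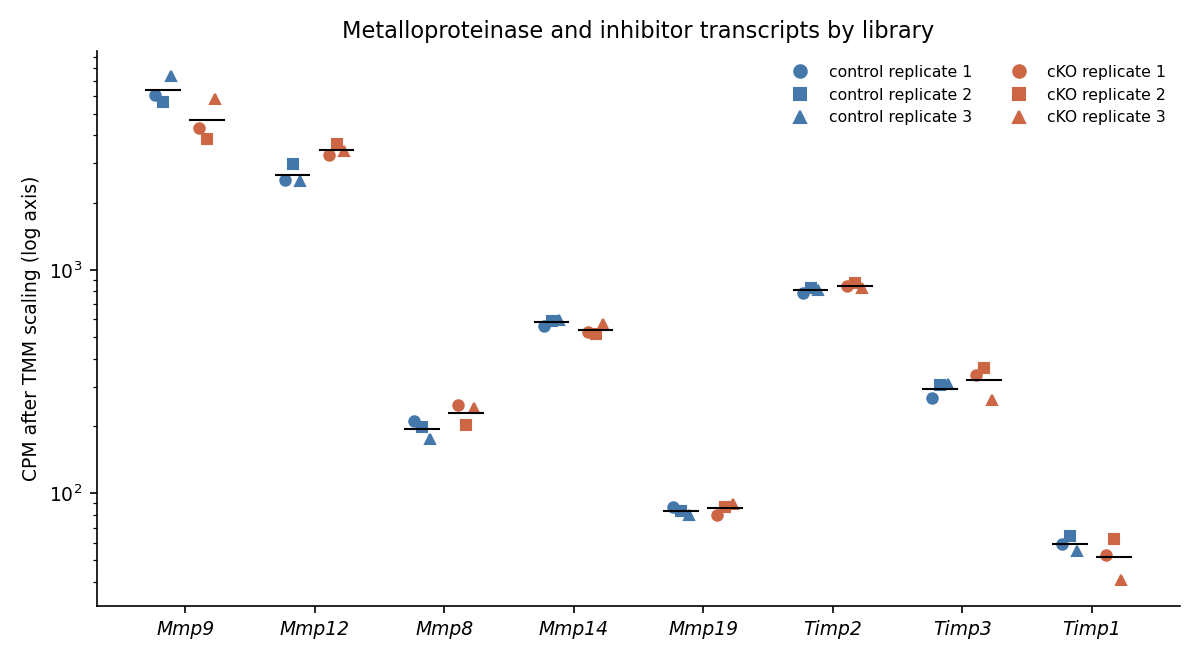
CPM after TMM scaling (log axis) of the 8 genes in each of the 3 control and 3 cKO libraries, with a line at each group mean. The groups do not overlap for Mmp12 and Timp2 and overlap for the other 6 genes.

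Levels differed widely between the 8 genes. On the deposited FPKM scale, which divides by gene length, the control means were 1557 ± 226 for Mmp9 (mean ± SD, n = 3), 318 ± 30.7 for Mmp12, 179 ± 4.98 for Timp2, 84.3 ± 2.71 for Mmp14 and 69.2 ± 5.89 for Mmp8. Timp1 followed at 57.7 ± 4.08 FPKM, Timp3 at 31.0 ± 2.52 and Mmp19 at 20.3 ± 0.76. In cKO libraries the same scale gave 1148 ± 246 for Mmp9, 415 ± 28.4 for Mmp12, 189 ± 6.66 for Timp2, 82.3 ± 8.01 for Mmp8 and 78.6 ± 4.36 for Mmp14. Timp1 (50.8 ± 11.1), Timp3 (34.2 ± 5.77) and Mmp19 (21.1 ± 1.42) came last again. Mmp14 and Mmp8 were neighbours whose libraries overlapped (75.9 to 86.4 and 62.7 to 87.5 FPKM), and they changed places between the genotypes. By mean FPKM over the 6 libraries Mmp9 ranked 25th and Mmp12 66th of all 26699 genes, and by counts alone 9th and 18th. Mmp9 alone took 0.391% to 0.734% of all reads.

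The length behind the FPKM values matters for this family. For 95.1% of 13575 genes, the length implied by counts and FPKM lay within 2% of a constant times the union of all annotated exons, retained introns included. For Mmp12 this union is 7237 bp and the longest coding transcript 3607 bp, whereas for Mmp9 they are 3539 and 3175 bp. Per kilobase of the longest coding transcript, the control mean of Mmp9 was 2008 ± 283 CPM and its cKO mean 1471 ± 320 CPM (± SD, n = 3), and those of Mmp12 were 739 ± 72.5 and 956 ± 53.4 CPM. On that scale Mmp14 was at 179.7 CPM in control cells and clearly above Mmp8 at 80.1 CPM.

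Mmp9 (ENSMUSG00000017737, mm10 chromosome 2, 164940780 to 164955850, plus strand) was the most abundant protease of the family. Its level was 6090.0, 5656 and 7384 CPM in control libraries and 4328, 3870.1 and 5813 CPM in cKO libraries. Replicate 3 was the highest library of each genotype, and cKO replicate 3 lay above control replicate 2, so the groups overlapped. The log2 fold change was -0.45 ± 0.17 (SE), with an edgeR adjusted p of 0.248. Without cKO replicate 3 it was -0.64 and was called (adjusted p = 0.0105), where 3.59% of all genes were, and over the 15 alternatives tried the adjusted p ranged from 0.00212, in the fit with the replicate number as a block, which also called it, to 0.495.

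Mmp9 varied over the libraries much as several osteoclast genes did. Among 10431 genes with a mean of at least 5 CPM, likeness was measured as the root mean square difference between log2 levels centred on each gene's mean over the 6 libraries. The 5 genes nearest to Mmp9 were Slc9b2 (0.0329), Ocstamp (0.0408), Siglec15 (0.0425), Ctsk (0.0463) and Ank (0.0492). Ctsk encodes cathepsin K, Ocstamp a membrane protein of osteoclast fusion and Siglec15 a receptor of osteoclasts. Other osteoclast markers were also near, with Car2 ranked 10th, Oscar 11th, Acp5 20th and Dcstamp 23rd. Src, Nfatc1, Mst1r and Calcr ranked 57th, 59th, 66th and 71st. Further away were Itgb3 (134th), Tnfrsf11a (258th), Clcn7 (613th), Ostm1 (770th), Atp6v0d2 (1762nd) and Tcirg1 (1767th). Levels were centred over both genotypes together, so genes with a similar fold change tend to rank near by this measure. As a list, 0 of 17 osteoclast markers rose or fell (adjusted p), against 1.36% and 1.06% of all genes, and the median was -0.32. At an unadjusted p under 0.05 there were 6 lower genes, against 17.2% of all genes in either direction. DESeq2, which called 6.04% of genes, called 4. All 17 had negative log2 fold changes in a background of 49.6%, and 4 had groups that did not overlap, against 11.4% of all genes in that direction. Acp5, the phosphatase used to stain osteoclasts, had -0.56 ± 0.15 (adjusted p = 0.125), Siglec15 -0.49 ± 0.15 (0.126) and Ostm1, a partner of the lysosomal chloride channel, -0.20 ± 0.06 (0.101). The list's summed level was 8096 to 10119.5 CPM in control and 6475 to 8532 CPM in cKO libraries. Its part in the value of Mmp9 was not tested.

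**Figure D2:**
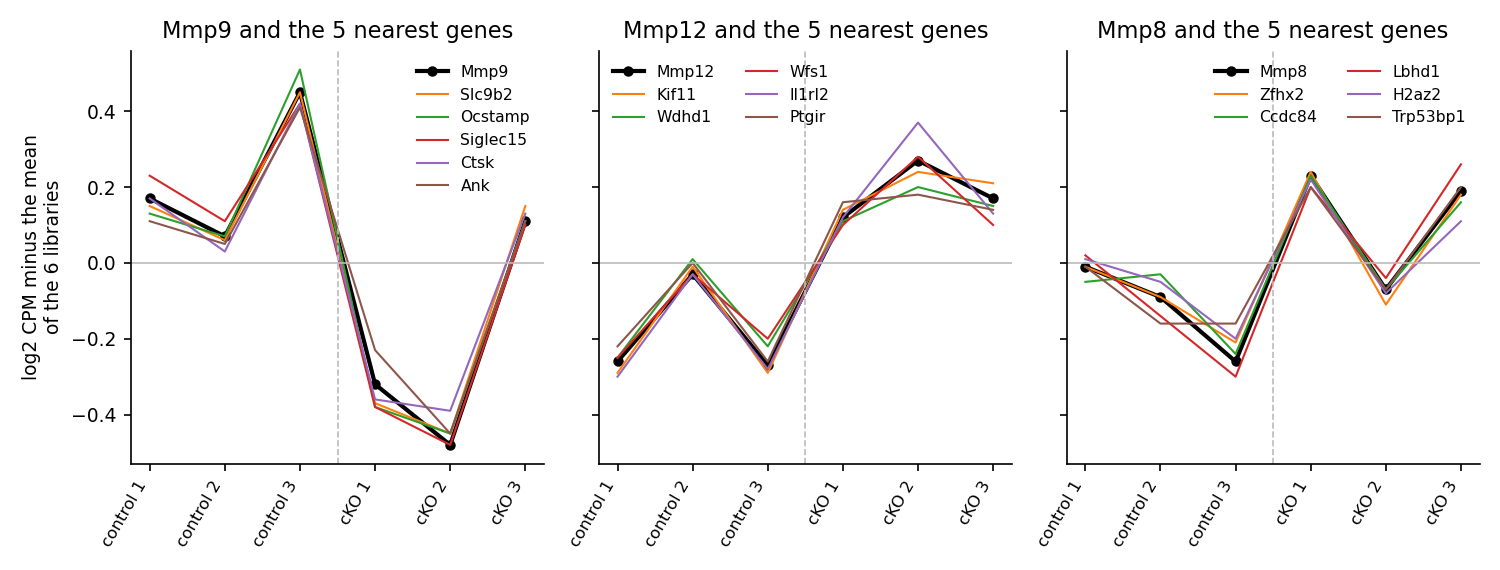
Log2 CPM minus the mean over 6 libraries for Mmp9, Mmp12 and Mmp8 (black) and the 5 genes nearest to each, with lines that only join the points of a gene. Mmp9 and its nearest genes peak in control replicate 3 (0.45 for Mmp9) and are lowest in cKO replicates 1 and 2, while Mmp12 is above its mean in the 3 cKO libraries alone.

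Mmp12 (ENSMUSG00000049723, chromosome 9, 7344381 to 7369499, plus strand), the macrophage elastase, was the next in abundance. It stood at 2523, 2968 and 2509 CPM in control libraries and at 3279.6, 3658 and 3408 CPM in cKO libraries. The lowest cKO library lay above the highest control library, as for 11.1% of all genes tested. The log2 fold change was 0.37 ± 0.08 (SE), with an edgeR adjusted p of 0.0309. The call held without control replicate 2 (0.0303) or cKO replicate 3 (0.0377). It was lost without control replicate 1 (0.133), control replicate 3 (0.13), cKO replicate 1 (0.13) or cKO replicate 2 (0.0782), with log2 fold changes of 0.33 to 0.41.

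Genes nearest to Mmp12 over the libraries were Kif11 (0.0282), Wdhd1 (0.0422), Wfs1 (0.0426), Il1rl2 (0.047) and Ptgir (0.0488), by the same measure. Kif11 encodes a mitotic kinesin, Wfs1 a membrane protein of the endoplasmic reticulum, Il1rl2 the receptor for interleukin 36 and Ptgir the prostacyclin receptor. None of these 5 was called, and Ptgir came closest (0.32, adjusted p = 0.055). Of 18 macrophage markers, 0 rose and 2 fell, against 1.36% and 1.06% of all genes. At an unadjusted p under 0.05 there were 2 higher and 5 lower, against 17.2% of all genes. DESeq2, which called 6.04% of genes, called 2 higher (Mertk and Cx3cr1) and 3 lower (C1qa, C1qb and Lyz2). Those that fell with edgeR were Lyz2, the lysozyme gene that carries the Cre insertion (-1.14 ± 0.08 SE, adjusted p = 9.39e-06), and C1qa, a chain of complement C1q (-0.45 ± 0.08, 0.0126). Cx3cr1, the fractalkine receptor, had 0.28 ± 0.07 (0.0558), and the median was -0.10. Without Lyz2 the markers summed to 9610.0 to 10547 CPM in control and 9200.3 to 9618 CPM in cKO libraries. C1qa missed the threshold without control replicate 1 (0.0741), control replicate 2 (0.0541) or cKO replicate 1 (0.0504).

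Mmp8 (ENSMUSG00000005800, chromosome 9, 7558456 to 7568485, plus strand), the neutrophil collagenase, was measured at 209, 198 and 175 CPM in control libraries. The cKO libraries stood at 247, 201 and 241 CPM. The values of cKO replicate 2 and control replicate 1 overlapped, and the log2 fold change of 0.24 ± 0.09 (SE) was not called (adjusted p = 0.19). Nearest to it were Zfhx2 (0.0301), Ccdc84 (0.0333), Lbhd1 (0.0428), H2az2 (0.0458) and Trp53bp1 (0.0536). No gene of neutrophil granules was among them, but this measure could not show whether Mmp8 varied with such genes. The measure depends on the size of a change, and the neutrophil markers Ngp and Ltf had log2 fold changes of 1.42 and 1.33. Markers with a mean level below the minimum for this comparison were left out of it.

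Neutrophil markers were low in these cultures apart from Csf3r, and several rose. Of 20 markers 14 were tested, and 5 rose and 0 fell, against 1.36% and 1.06% of all genes, with a median of 0.61. Log2 fold changes were positive for 10 of them, against 50.4% of all genes, and negative for 4. Unadjusted, 6 higher and 0 lower had a p under 0.05, against 17.2% of all genes. DESeq2, which called 6.04% of genes, called 5 higher. Ly6g was not among the genes of the files, and Elane, Ctsg, Retnlg, Stfa2l1 and Wfdc21 did not pass the filter. Ngp, a granule protein, went from 8.13, 8.74 and 6.50 CPM in control libraries to 20.5, 23.7 and 18.2 CPM in cKO libraries, with no overlap. The difference was 1.42 ± 0.14 on the log2 scale (SE; edgeR adjusted p = 0.000311). Ltf (lactoferrin) had 1.33 ± 0.13 (0.000345), S100a9 and S100a8, the subunits of calprotectin, 1.16 ± 0.17 (0.00479) and 0.88 ± 0.20 (0.0401), and Csf3r, the G-CSF receptor, 0.41 ± 0.09 (0.0415). With 1 library left out at a time, Ngp, Ltf and S100a9 stayed called in all 6 fits. S100a8 stayed called in 1 fit, without cKO replicate 3, and Csf3r in 2, without control replicate 1 or cKO replicate 3, with adjusted p of up to 0.186 and 0.213. The list's sum, 103 to 119 CPM in control and 154 to 185 CPM in cKO libraries, was below the level of Mmp8 itself in each library. Camp, Prtn3, Cebpe, Cxcr2 and Ltb4r1 stayed under 1 CPM in all 6 libraries. Whether these markers bear on Mmp8 was not tested.

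Mmp8 and Mmp12 belong to a cluster of metalloproteinase genes on chromosome 9, of which 6 were listed in the files between 7272514 and 7581415. Of the 5 that were tested, 2 rose (Mmp27 and Mmp12) and 0 fell, against 1.36% and 1.06% of all genes. All 5 had positive log2 fold changes, against 50.4% of all genes. Mmp27 (ENSMUSG00000070323, 7571396 to 7581415), which follows Mmp8, stood at 9.99, 8.65 and 9.10 CPM in control libraries and at 14.8, 14.3 and 13.7 CPM in cKO libraries. The groups lay far apart (0.63 ± 0.11 SE on the log2 scale, adjusted p = 0.0136). Its call was lost without control replicate 2 (0.0605), control replicate 3 (0.07) or cKO replicate 1 (0.108). Mmp13 (collagenase 3, 7272514 to 7283331) had 6.55, 7.38 and 6.12 CPM in control and 9.53, 8.82 and 9.57 CPM in cKO libraries. These did not overlap either, but Mmp13 was not called (0.48 ± 0.13, adjusted p = 0.0839). Such a lack of overlap with cKO higher was seen for 11.1% of all genes tested. Mmp3 (stromelysin 1) had 0 to 27 reads per library and no stable sign, and Mmp10, with 0 to 21 reads, was not tested. The Mmp13, Mmp12, Mmp8 and Mmp27 rows overlapped no other gene of the files.

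**Figure D3:**
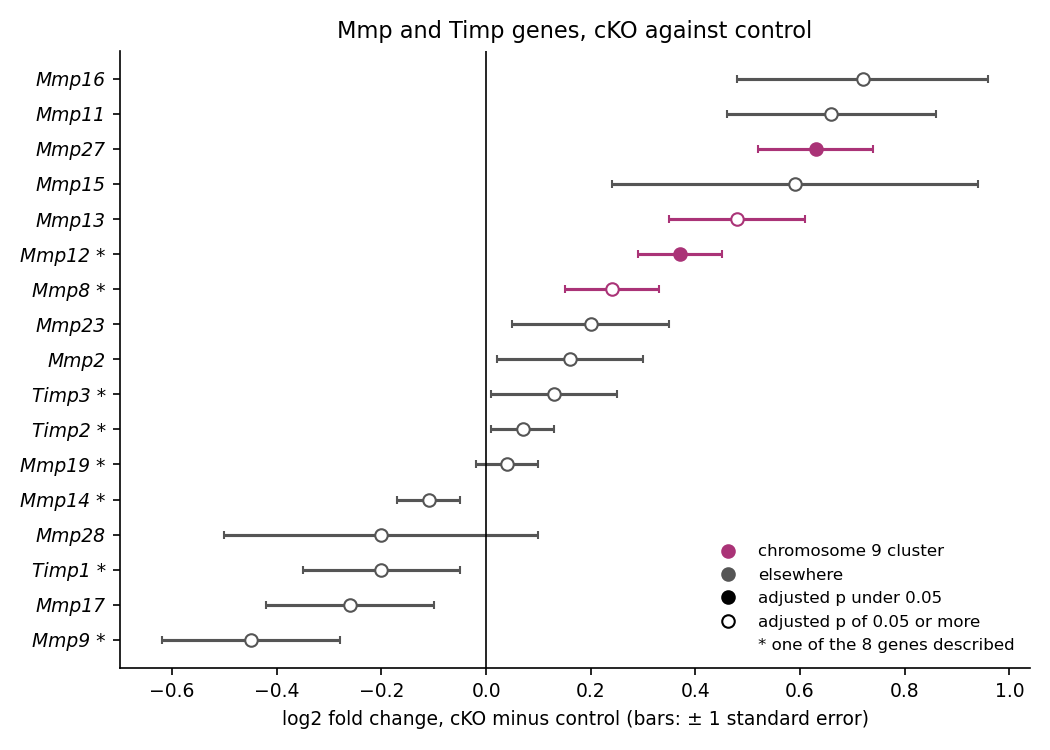
Log2 fold change (cKO minus control) with 1 standard error for 17 of the 19 Mmp and Timp genes tested, filled where the adjusted p was below 0.05. Mmp3 and Mmp25, with at most 27 reads per library, are left out, and the 4 genes of the chromosome 9 cluster all lie right of 0, with Mmp27 and Mmp12 called.

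Sequences around the start sites are shown for the 4 tested genes of the cluster other than Mmp3, of which Mmp12 and Mmp27 rose and Mmp13 and Mmp8 were not called. RefSeq promoters of build GRCm38.p6 (mm10) were found for 6 of the 8 members, with no entry for Mmp9 and Mmp19. Each line gives 120 bases before and 15 from the annotated start, 5′ to 3′ on the gene's strand. Capitals mark matches on either strand to TGANTCA (the AP-1 motif), TATAAA (the letters of a TATA box) or GAGGAAGT (a motif of the ETS factor PU.1), which could overlap each other and did not here.
Mmp12, outer start, chr9:7344277-7344411, plus strand: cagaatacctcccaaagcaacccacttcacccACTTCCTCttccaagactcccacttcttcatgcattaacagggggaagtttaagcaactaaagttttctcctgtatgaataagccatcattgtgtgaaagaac
Mmp12, inner start, chr9:7347254-7347388, plus strand: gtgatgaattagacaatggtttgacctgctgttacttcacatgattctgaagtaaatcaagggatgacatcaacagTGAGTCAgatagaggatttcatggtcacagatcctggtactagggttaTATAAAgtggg
Mmp13, chr9:7272394-7272528, plus strand: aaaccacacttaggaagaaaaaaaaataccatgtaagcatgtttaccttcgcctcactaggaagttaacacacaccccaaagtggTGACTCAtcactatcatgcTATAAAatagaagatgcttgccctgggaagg
Mmp8, chr9:7558309-7558443, plus strand: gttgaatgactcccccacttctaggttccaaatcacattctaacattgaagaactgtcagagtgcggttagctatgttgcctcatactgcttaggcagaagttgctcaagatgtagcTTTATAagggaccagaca
Mmp27, chr9:7571276-7571410, plus strand: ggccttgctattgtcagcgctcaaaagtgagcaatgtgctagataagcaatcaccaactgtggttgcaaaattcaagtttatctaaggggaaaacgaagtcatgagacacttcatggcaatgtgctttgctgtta
The inner start of Mmp12 and the start of Mmp13 each held TGANTCA, 44 and 35 bases before the start, and TATAAA. In Mmp13 the TATAAA lay before the start, whereas in Mmp12 it began after the annotated inner start. The outer start of Mmp12 held GAGGAAGT on the other strand. Mmp8 held TATAAA on the other strand alone, and Mmp27 held none of the 3. Over all 12 promoters of the 10 metalloproteinase genes that RefSeq lists in this cluster, 8 held TGANTCA, against 3.79% of 32851 mouse promoters in windows of the same length, and 9 held TATAAA, against 6.76%. Of those 8, 6 belong to genes with at most 27 reads per library (Mmp3 and Mmp10) or with no values here (Mmp1a, Mmp1b, Mmp7 and Mmp20), and the other 2 are those of Mmp12 and Mmp13 shown above. Of the 13 Mmp and Timp promoters outside the cluster, 0 and 1 did. GAGGAAGT occurred in 2 of 12 and 0 of 13, against 1.56% of all. A match is a match of letters and does not show that a factor was bound.

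A list of transcription factor genes held AP-1 and ETS factors, whose motifs were searched, and NF-kB subunits, whose motif was not. It also held Runx1, Runx2, Cebpb, Nfatc1 and Mitf, which belong to none of these families. Of all 22 genes on this list, 0 rose and 2 fell, with a median of -0.06, against 1.36% and 1.06% of all genes. The genes that fell were Relb (-0.38 ± 0.08 SE, adjusted p = 0.0321) and Nfkb2 (-0.26 ± 0.06, 0.0428), both NF-kB subunits, and no AP-1 or ETS gene was called. At an unadjusted p under 0.05 there were 2 higher and 5 lower genes, against 17.2% of all genes. DESeq2, which called 6.04% of genes, called 3 lower, Fos besides Relb and Nfkb2. The AP-1 gene Fos had 141, 166 and 138 CPM in control and 111, 118 and 134 CPM in cKO libraries (-0.29 ± 0.09, adjusted p = 0.115). The calls of Relb and Nfkb2 held without cKO replicate 3 and were lost without any other library, the highest adjusted p being 0.188 and 0.234. That of Nfkb2 was also lost with upper-quartile factors (0.0521) and with total counts only (0.0629).

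Mmp14 (ENSMUSG00000000957, chromosome 14, 54431612 to 54441265, plus strand), the membrane-anchored activator of pro-MMP2, had 563, 589.9 and 593 CPM in control libraries and 529, 513 and 574 CPM in cKO libraries. A single pair of libraries crossed, control replicate 1 and cKO replicate 3. The log2 fold change was -0.11 ± 0.06 (SE, adjusted p = 0.378).

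Mmp19 (ENSMUSG00000025355, chromosome 10, 128790910 to 128800824, plus strand) was the least abundant of the 5 enzymes. Its level was 86.4, 83.2 and 79.5 CPM in control libraries and 79.8, 87.0 and 89.6 CPM in cKO libraries. The ranges nearly coincided (0.04 ± 0.06 SE on the log2 scale, adjusted p = 0.791). Tmem198b and Gm47093 overlap it on the other strand, with 606 to 920 and 2 to 9 reads per library beside 4022 to 4859 for Mmp19. No source used here gives the strand setting of the counting, so such reads may have been shared.

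Timp2 (ENSMUSG00000017466, chromosome 11, 118301069 to 118355740, minus strand) was the main inhibitor transcript. It stood at 785, 826 and 814 CPM in control libraries and 844, 870.5 and 828 CPM in cKO libraries. The groups did not overlap, as for 22.5% of all genes in either direction, but the difference was small and not called (0.07 ± 0.06 SE, adjusted p = 0.594). The SD was 20.8 CPM over control and 21.3 CPM over cKO libraries. Cep295nl, within Timp2 on the same strand, had 35 to 93 reads per library.

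Timp3 (ENSMUSG00000020044, chromosome 10, 86300372 to 86349506, plus strand), which binds to the matrix and also inhibits ADAM proteases, had 266, 304 and 308 CPM in control libraries. The cKO libraries had 336, 362 and 261 CPM, so that cKO replicate 3 was the lowest of all 6 and the other 2 cKO libraries the highest. The log2 fold change was 0.13 ± 0.12 (SE, adjusted p = 0.636), and 0.26 without cKO replicate 3 (0.084).

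Timp1 (ENSMUSG00000001131, chromosome X, 20870166 to 20874735, plus strand), an inhibitor that also binds pro-MMP9, had 59.1, 63.9 and 55.1 CPM in control libraries. The cKO libraries had 52.5, 62.4 and 40.6 CPM. Again cKO replicate 3 was the lowest of all 6, and the log2 fold change of -0.20 ± 0.15 (SE) was not called (adjusted p = 0.559). Timp1 and Timp3 each lie inside a synapsin gene on the other strand. Syn1 had 551 to 908 reads per library beside 2163 to 3663 for Timp1, and Syn3 had 0 to 26 beside 13856 to 20214 for Timp3.

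Within the cKO libraries, Timp1, Timp3 and Mmp2 were all highest in replicate 2 and lowest in replicate 3, as was the summed level of stromal markers. Within the control libraries only Timp1 shared that order with the sum. There Timp3 was highest in replicate 3, and Mmp2 was lowest in replicate 1. The stromal sums were 7030, 8731 and 5576 CPM in cKO libraries and 6516, 7080 and 6209 CPM in control libraries (16 of 18 markers, Mmp2 among them). Mmp2 (gelatinase A), a product of stromal cells, had 92.0, 97.2 and 95.4 CPM in control and 109, 127 and 82.6 CPM in cKO libraries (0.16 ± 0.14 SE, adjusted p = 0.63). It was called in 1 of the 6 fits with a library left out. Over the 15 alternatives its log2 fold change was 0.02 to 0.32 and its adjusted p 0.0367 to 0.966. Of the 16 stromal markers 1 rose and 0 fell, against 1.36% and 1.06% of all genes, with a median of 0.27. Positive log2 fold changes were seen for 14, against 50.4% of all genes. Groups of 4 did not overlap with cKO higher, against 11.1%. Unadjusted, 6 higher and 0 lower had a p under 0.05, against 17.2% of all genes. DESeq2, which called 6.04% of genes, called 3 higher (Pdgfrb, Alpl and Pdgfra). The gene that rose with edgeR was Alpl, the alkaline phosphatase of bone-forming cells (adjusted p = 0.0268). Alpl was at 0.28 to 0.86 CPM in control and 2.01 to 2.80 CPM in cKO libraries. Its call held only without cKO replicate 3 among the 6 fits with a library left out. The PDGF receptor genes Pdgfra and Pdgfrb had 0.76 ± 0.20 (0.0649) and 0.35 ± 0.09 (0.0768). The part of stromal cells in these levels was not tested.

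Apart from Mmp2, the remaining family members were scarce. Of 19 further Mmp and Timp genes, 14 were listed and 11 tested, of which 1 (Mmp27) rose and 0 fell, against 1.36% and 1.06% of all genes. At an unadjusted p under 0.05 there were 4 higher and 0 lower, against 17.2% of all genes. DESeq2, which called 6.04% of genes, called Mmp13 and Mmp27. Groups did not overlap for Mmp11 (0.66 ± 0.20 SE, adjusted p = 0.124), Mmp16 (0.72 ± 0.24, 0.146) and Mmp15 (0.59 ± 0.35, 0.422), each with cKO higher and under 6 CPM in all libraries. Over all genes tested, 11.1% had groups that did not overlap with cKO higher. Mmp11 shares its locus with Chchd10 on the other strand, which had 614 to 1255 reads per library beside 138 to 310 for Mmp11. Mmp17 stood at -0.26 ± 0.16 (0.445), Mmp23 at 0.20 ± 0.15 (0.544) and Mmp28 at -0.20 ± 0.30 (0.779; 0.08 without control replicate 2). Mmp25, a membrane-bound enzyme of neutrophils, had 0 to 24 reads per library, and Mmp24 and Timp4 had at most 7. Over members and further genes together, 14 of 19 tested had higher levels in cKO cells, against 50.4% of all genes, and 13 or 14 of 19 did in each alternative that kept all 19.

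The balance between the enzymes was compared within libraries, where the scaling of libraries cancels out. There were 2.41, 1.91 and 2.94 Mmp9 reads per Mmp12 read in control libraries and 1.32, 1.06 and 1.71 in cKO libraries, with no overlap. The mean log2 ratio was 1.25 ± 0.31 in control and 0.42 ± 0.34 in cKO libraries (SD, n = 3), a difference of -0.84 with an exact two-sided permutation p of 0.1. That is the smallest p that 3 libraries against 3 can give, so this test could not reach 0.05, and adjusted over the 4 ratios compared it was 0.133. Mmp9 reads per Mmp8 read were 29.1, 28.5 and 42.2 in control and 17.5, 19.3 and 24.2 in cKO libraries. These did not overlap either, with a log2 difference of -0.70 (exact permutation p = 0.1, adjusted 0.133). Mmp9 was thus lower relative to both genes of the cluster in each cKO library than in any control library. How often ratios of other gene pairs do not overlap was not counted for any of the 4 ratios.

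**Figure D4:**
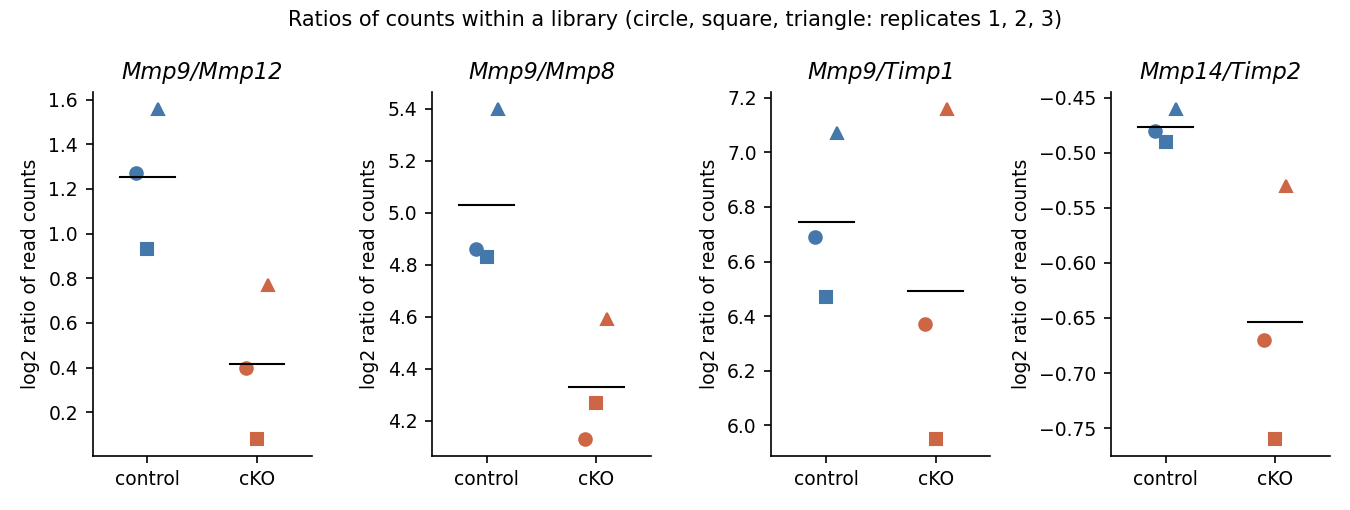
Log2 ratios of read counts within each library for 4 pairs of genes, with a line at each group mean and axes that differ between panels. The groups do not overlap for Mmp9/Mmp12, Mmp9/Mmp8 and Mmp14/Timp2, and overlap for Mmp9/Timp1.

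Enzyme and inhibitor were compared in the same way. Mmp14 reads per Timp2 read were 0.716, 0.714 and 0.729 in control and 0.627, 0.589 and 0.693 in cKO libraries. The groups did not overlap, and the log2 difference was -0.18 (exact permutation p = 0.1, adjusted 0.133). The control libraries were close together (SD 0.02) and the cKO libraries spread more (SD 0.12). For Mmp9 and Timp1, the log2 ratio was 6.74 ± 0.30 in control and 6.49 ± 0.61 in cKO libraries (SD, n = 3), with overlapping groups (exact permutation p = 0.5). Its difference of -0.25 became 0.02 without cKO replicate 2.

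Among 24 tested genes that activate, dock or clear metalloproteinases, 1 rose and 0 fell, against 1.36% and 1.06% of all genes, with a median of -0.01. There were 3 higher and 5 lower at an unadjusted p under 0.05, against 17.2% of all genes. DESeq2, which called 6.04% of genes, called 1 higher and 2 lower. Lrp1, the scavenger receptor that takes up MMP9 and its inhibitor complexes, stood at 2636, 2694 and 2498 CPM in control libraries and at 3293, 3255 and 3210.2 CPM in cKO libraries. The groups lay well apart (0.32 ± 0.06 SE, adjusted p = 0.0211). Lrp1 missed the threshold without any 1 of the control libraries (0.0771, 0.0632 and 0.0977), without cKO replicate 1 (0.144) and with the length trend removed (0.073). Serpinb2, an inhibitor of urokinase, had -0.37 ± 0.10 (0.0731), and Spock2, a testican proteoglycan, 1.12 ± 0.32 (0.102) at 0.61 to 2.24 CPM.

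Of 23 ADAM and ADAMTS protease genes and their regulators, relatives of the metalloproteinases, 2 rose and 0 fell, with a median of 0.07. Over all genes 1.36% rose and 1.06% fell. The unadjusted p was under 0.05 for 6 higher and 2 lower genes, against 17.2% of all genes. DESeq2, which called 6.04% of genes, called 2 higher. Adamts10, a secreted protease of fibrillin microfibrils, had 0.39 ± 0.09 (SE, adjusted p = 0.0392) and Adam19, a membrane sheddase, 0.33 ± 0.07 (0.041). Adam23 had 0.63 ± 0.20 (0.141). The call of Adamts10 was lost in all 6 fits with a library left out and that of Adam19 in 5, the highest adjusted p being 0.211 and 0.201. Both were also lost with the length trend removed (0.051 and 0.0549).

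Among 23 tested genes of matrix substrates, 2 rose and 0 fell, against 1.36% and 1.06% of all genes, with a median of 0.12. Unadjusted, 7 higher and 0 lower genes had a p under 0.05, against 17.2% of all genes. DESeq2, which called 6.04% of genes, called 4 higher. Col6a2 and Col6a1, chains of collagen VI, had 0.66 ± 0.09 (SE, adjusted p = 0.00422) and 0.59 ± 0.08 (0.00495). Col6a2 went from 162, 171 and 164 CPM in control to 267, 295 and 224 CPM in cKO libraries, and its call held in all 6 fits with a library left out. Col6a1 had 235, 244 and 236 CPM in control and 370, 399 and 308 CPM in cKO libraries. Among cKO libraries both were highest in replicate 2 and lowest in replicate 3, as was the stromal marker sum (7030, 8731 and 5576 CPM), whose part in the rise was not tested. Among control libraries both were lowest in replicate 1, whereas the stromal sum was lowest in replicate 3. Col6a1 missed the threshold without control replicate 1 (0.0554) or cKO replicate 1 (0.0601). Hspg2, the proteoglycan perlecan, had 0.27 ± 0.08 (0.104). Of 6 tested endothelial markers 0 rose or fell, against the same shares of all genes (also 0 at an unadjusted p under 0.05 and with DESeq2). Their sum was 92.7 to 107 CPM in control and 92.6 to 99.2 CPM in cKO libraries. Most of that sum was Vwf, at a mean of 91.1 CPM, and the next gene, Kdr, had a mean of 3.74 CPM. Kdr (-0.28, adjusted p = 0.504), Pecam1 (0.44, 0.555) and Cdh5 (1.38, 0.613) had the smallest p among the endothelial markers. Of 3 tested lymphocyte markers 1 rose, against 1.36% of all genes: Ighm (0.72 ± 0.12, 0.0103). It missed the threshold without control replicate 2 (0.0605), control replicate 3 (0.0672) or cKO replicate 1 (0.0815). The other markers tested, Cd79b and Klrb1c, stayed under 1 CPM.

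**Figure D5:**
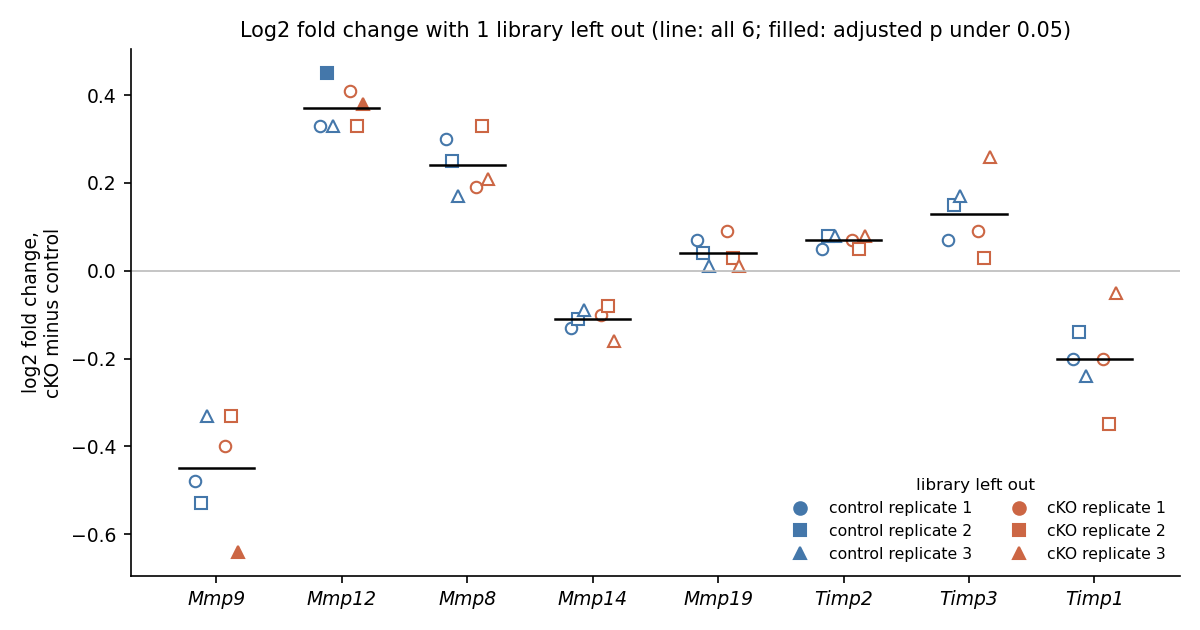
Log2 fold change of the 8 genes with all 6 libraries (line) and with 1 library left out (points; colour and shape give the library left out), filled where the adjusted p was below 0.05. No point crosses 0, Mmp9 is filled only without cKO replicate 3, and Mmp12 only without control replicate 2 or cKO replicate 3.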

How the data were processed

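Polyadenylated RNA of 6 libraries was measured. Per the file headers, each deposited table gives raw counts of reads for every gene, and beside them FPKM values that the authors had calculated. The submitters' processing notes name cutadapt 1.9 and build mm10. No source used here names the aligner, the counting program, its strand setting or the FPKM denominator. Counts were tested with edgeR 4.0.16 in R 4.3.3 (genes kept by filterByExpr at count 10 and total 15, TMM, robust quasi-likelihood F test), with Benjamini-Hochberg adjustment over all 16843 genes tested. Calls have an adjusted p below 0.05. Standard errors were derived from each log2 fold change and its F value. On simulated counts for these 16843 genes, 100% of genes changed 2-fold and 54% of those changed by 0.5 on the log2 scale were called. All changed genes had at least 50 reads on average. The spread between simulated libraries was set by a fixed formula and not estimated from these libraries. These shares therefore check the code and do not give the power of the test in these data. Ratios took log2 of counts plus 0.5. FPKM values served for levels between genes and for gene length. Alternatives used DESeq2 1.42.0, limma 3.58.1, other scalings and filters, a replicate block, removal of each library's length trend and each library left out. The members, the lists and the tests were chosen with earlier results of these data known. Named are the 8 members, the tested Mmp and Timp genes, Slc11a2 and Lyz2, from each list the called genes (at most 6) or the 3 smallest p, and the 5 genes nearest to Mmp9, Mmp12 and Mmp8. The lists cover further Mmp and Timp genes, activation and clearance, ADAM proteases, matrix substrates, and AP-1, NF-kB, ETS and some other transcription factors. They also cover markers of osteoclasts, macrophages, neutrophils, stroma, endothelium and lymphocytes. Other genes were named after their values were seen.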

Additional observations from a re-analysis of the deposited data

How the results depend on the processing

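The number of called genes, 407, was 673 with the replicate block, 800 with DESeq2 and 704 with limma-voom, and 59 to 624 with a library left out, lowest without cKO replicate 1 and highest without cKO replicate 3. The share of calls that were higher in cKO cells was 56.3%, against 66.9% with upper-quartile factors, 70.2% with total counts only and 69.5% with the length trend removed. It fell below an even split with DESeq2 (46.4%), the replicate block (47.0%) and limma-voom (49.7%). All 8 members kept their direction in the 15 alternatives. Of the members 1 was called, against 2 of 8 (Mmp9 and Mmp12) with the replicate block, where 4.0% of all genes were called, and 0 to 2 with a library left out. The log2 fold change of Mmp12 was 0.33 to 0.45 and that of Mmp9 -0.64 to -0.33 with a library left out. With the replicate block Mmp9 was at -0.46 (adjusted p = 0.00212) and no other member's call changed. Same-numbered libraries did not deviate together over all genes (correlations of -0.0246, -0.0183 and -0.00407 between deviations from the group means). A correlation over all genes cannot exclude pairing that moves a small part of them. Mmp9 itself was highest in replicate 3 and lowest in replicate 2 of both genotypes. The labels do not give pairs, so the main fit does not use the numbers as pairs, and whether they are pairs is not known. The difference in the Mmp9/Timp1 log2 ratio, cKO minus control, was -0.58 to 0.02 with a library left out and reversed, to 0.02, without cKO replicate 2. The sign of Mmp28 reversed without control replicate 2 (0.08), that of Mmp25 with limma-voom (-1.12) and without cKO replicate 3 (0.00; 1.72 at most, without control replicate 2), and that of Mmp3 without control replicate 1 (-0.14), control replicate 2 (-0.16) or cKO replicate 2 (-0.47; 6.54 at most, without control replicate 3, where its control libraries had 0 reads). The cause was not tested; Mmp3 and Mmp25 had at most 27 reads per library, which limits their precision.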
